A study of Caenorhabditis elegans with 83 samples.

Results

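Small RNAs counted on annotated pseudogenes of Caenorhabditis elegans are described here across mutants of 2 histone methyltransferase genes. Members were all rows whose gene biotype in the WBcel235 annotation is pseudogene, apart from names beginning fbxa-, fbxb-, fbxc-, math-, bath-, str-, sri-, clec-, nhr- or msp-. The rule itself uses no measured value, though it was set with earlier results of these data known. It gave 455 of 20449 gene rows in SX1263 and 590 of 20390 in EG6089, 603 pseudogenes in all, of which 442 had a row in both sets.

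A pseudogene is a gene copy that the annotation holds to have lost its coding function. In worms, RNA-dependent RNA polymerases use cellular transcripts, pseudogene transcripts included, as templates for antisense small RNAs, which Argonaute proteins carry to matching RNA and to chromatin. MET-2 is known to place mono- and dimethyl marks on lysine 9 of histone H3, and SET-25 the trimethyl mark.

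The study sequenced small RNAs of whole day 1 adults, grown at 20 degrees, in 83 libraries of 28 groups. All groups carried the reporter background SX1263 or EG6089. The SX1263 genotypes were wild type, set-25 (allele n5021), met-2 (allele n4256) and the double mutant met-2;set-25 with both alleles, each taken at P0 and F3, with F15 animals of wild type and of met-2 besides. The EG6089 genotypes were wild type and the double mutant, at P0 and F3. At P0 the food was a bacterium making dsRNA to GFP or, for controls, one with an empty vector, and later generations lived on OP-50, so food also differs between P0 and F3. Descendants of fed animals are called anti-GFP lines. Each group held 3 libraries except SX1263 wild type fed anti-GFP bacteria at P0, with 2. Each mutation was present as 1 allele, so other differences between the lines and the mutation cannot be told apart. In whole animals, fewer cells of a type and less RNA per cell cannot be told apart either. The labels number the replicates without calling them separate cultures, so p-values measure the spread between these libraries, which may be technical.

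Gene counts per library ran from 3583283 to 18225929 in SX1263 (median 7469120) and from 2134929 to 6102965 in EG6089 (median 3660163). Levels are counts per 1000000 gene counts (CPM) after scaling, and a change is a log2 difference, given with its standard error (SE). As a check in part, small RNAs on the met-2 row lay at 76.6 to 137.5 CPM in the 30 SX1263 libraries with the met-2 allele and at 307.5 to 431 CPM in the other 29. On the set-25 row they were 158 to 197 CPM in set-25, 105 to 193 CPM in met-2;set-25, 168 to 225 CPM in met-2 and 228 to 297 CPM in wild type. These rows count small RNAs, not the deletion or its transcript. Germline markers were abundant in every F3 control group, at 1389 to 2086 CPM summed over 7 genes.

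Pseudogenes took a small and uneven part of the small RNA. They held 2.61 to 4.25% of gene counts in SX1263 libraries (median 3.55%) and 3.46 to 6.13% in EG6089 libraries (median 4.46%). In SX1263 wild-type controls at F3, 143 of the 455 had no count, 68 had at least 10 CPM and 33 at least 100 CPM. The 10 most abundant held 72.6% of all pseudogene counts there. In EG6089 the 10 most abundant held 59.6%. Per kb of gene span, the median level was 0.085 CPM for pseudogenes against 0.401 CPM for protein-coding rows in SX1263, and 0.081 against 0.327 CPM in EG6089. Of the pseudogenes in the annotation, 24.2% had a row in SX1263 and 31.2% in EG6089, and those without a row were not analysed here.

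The most abundant pseudogene was F37H8.2 (chromosome II, 11171743 to 11175479), with 8648 ± 303 CPM (SD, n = 3) in SX1263 wild-type F3 controls. Y46H3C.6 followed with 3660 ± 318 CPM, Y37H9A.2 with 3477 ± 111 CPM and W04B5.1 with 2603 ± 533 CPM. Of these 4, F37H8.2 and Y46H3C.6 differed beyond their spread, while Y46H3C.6 and Y37H9A.2 overlapped. Y37H9A.2 overlaps the protein-coding gene ccct-1 and W04B5.1 overlaps W04B5.8, and reads cannot be divided between such neighbours, since the strand used in counting is not given in the sources used here. F46F2.4 (1881 ± 105 CPM), F49F1.8 (1771 ± 60.4 CPM), Y52B11A.18 (1486 ± 52.4 CPM), W04B5.2 (1359 ± 152 CPM), F22H10.5 (1289 ± 94.1 CPM) and C14B1.7 (1060 ± 14.6 CPM) completed the 10. F37H8.2, Y46H3C.6 and Y37H9A.2 also led in EG6089.

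Of the 455 pseudogenes, 105 had a gene symbol and 350 a sequence name alone. Chemoreceptor pseudogenes, with names starting sr, numbered 35 in SX1263 and 39 in EG6089, and none had enough counts to be tested in any comparison. Pseudogenes lay on autosome arms, the outer 25% at either end, in 54.9% of cases, against 38.2% of protein-coding rows. The autosome centres held 130 of them and the X chromosome 75. In SX1263, 44 overlapped a protein-coding gene, 16 of them on the same and 28 on the opposite strand. The low-count filter left 197 of 455 in SX1263 and 175 of 590 in EG6089 that were tested in at least 1 comparison, and counts of called members below refer to those tested.

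**Figure D1:**
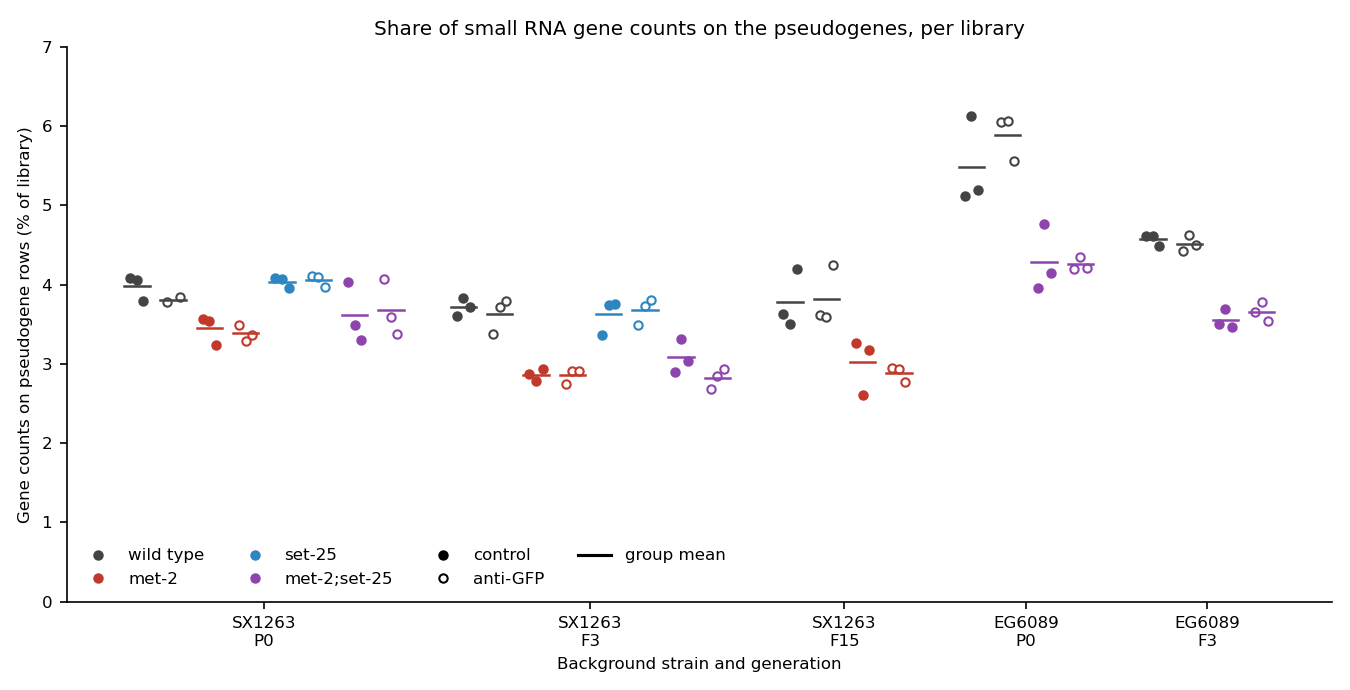
Percent of each library's gene counts that fell on pseudogene rows, by background strain and generation. Each point is 1 library, bars are group means, and colours mark genotypes. At F3 the 3 SX1263 met-2 control libraries lie at 2.79 to 2.93%, below the wild-type controls.

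At F3 the share of counts on pseudogenes was lower in the control lines with the met-2 allele. In SX1263 controls at F3 wild type had 3.72 ± 0.11%, met-2 2.87 ± 0.07%, met-2;set-25 3.08 ± 0.21% and set-25 3.63 ± 0.22% (SD, n = 3). In EG6089 it was 4.57 ± 0.08% in wild type and 3.55 ± 0.12% in met-2;set-25. The F15 values were 3.78 ± 0.37% for wild type and 3.02 ± 0.35% for met-2. At P0 in SX1263 met-2 controls lay at 3.24 to 3.57% and wild type at 3.79 to 4.08%, while met-2;set-25, at 3.31 to 4.04%, overlapped wild type. This share was not tested, since a few abundant rows set it. F37H8.2 alone stood at 8353, 8959 and 8632 CPM in the wild-type F3 controls and at 4113, 4213 and 4957 CPM in met-2. All 3 met-2 libraries were below all 3 wild-type ones, with a change of -0.97 (SE 0.15, edgeR adjusted p = 7.8e-05). F37H8.2 changed by as much in met-2;set-25, by -0.91 in SX1263 (edgeR adjusted p = 0.00012) and by -0.97 in EG6089 (edgeR adjusted p = 1.9e-06).

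The first comparison asked which pseudogenes lost or gained small RNAs without MET-2. In SX1263 F3 controls, edgeR's quasi-likelihood test with Benjamini-Hochberg adjustment called 32 of 164 tested pseudogenes higher and 49 lower in met-2 (19.5% and 29.9%), where the background over all genes tested was 17.9% higher and 10.3% lower. At P0 it called 24 higher and 46 lower of 195 (background 13.5% and 9.93%), and at F15 21 higher and 54 lower of 143 (background 19.1% and 17.4%). The median size of change, in either direction, was 0.72 for pseudogenes against 0.41 for all genes at P0, 0.88 against 0.34 at F3 and 1.25 against 0.43 at F15. Counting noise at low levels also enters this measure. In each comparison for RNAi against GFP, where no pseudogene was called, pseudogenes had the larger median too. In wild type at F3 it was 0.14 against 0.10. The part of low counts in the met-2 values was not tested. The signed median of the pseudogenes was -0.13, -0.02 and -0.49 in these 3 generations.

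The falls included pseudogenes that kept almost no small RNA. Y18D10A.22 (chromosome I, 12932037 to 12933753) had 10.1, 16.2 and 10.1 CPM in wild-type F3 controls and 0, 0.281 and 0.262 CPM in met-2 (log2 change -5.92, SE 0.63, edgeR adjusted p = 1.4e-06). Y116F11B.11 (chromosome V, 19878221 to 19880028) had 5.84, 9.15 and 5.2 CPM in wild type and 0.577, 0.140 and 0 CPM in met-2 (-4.76, SE 0.66, edgeR adjusted p = 2.7e-05). For both, every met-2 library lay below every wild-type library at P0, F3 and F15. Y54G2A.42, which overlaps the protein-coding gene Y54G2A.12 on the opposite strand, fell from 2.62, 3.54 and 2.35 CPM to 0.432, 0 and 0 CPM at F3 (edgeR adjusted p = 0.00048), and had 0 counts in all 6 met-2 libraries at F15.

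Falls were also seen at pseudogenes that remained well covered. The pseudogene dct-10 (chromosome V, 20506503 to 20509510), named as a target of the DAF-16 transcription factor that affects germline tumours, had 770, 791 and 751.5 CPM in wild-type F3 controls and 246, 146 and 178 CPM in met-2 (-2.02, SE 0.25, edgeR adjusted p = 9.2e-06). The lipase-related pseudogene lips-14 (chromosome II, 1484094 to 1485764) had 51.1, 57.3 and 41.6 CPM against 8.50, 5.33 and 6.82 CPM (-2.86, SE 0.34, edgeR adjusted p = 5.7e-06). The groups did not overlap for either. The pseudogene set-33, whose name refers to the SET domain of histone methyltransferases, lies near the left end of X (257329 to 260110). It had 17, 16.2 and 14.9 CPM in wild type and 2.59, 0.561 and 1.84 CPM in met-2 (-3.25, SE 0.30, edgeR adjusted p = 2.5e-07). In set-25 it stood at 18.3, 24.2 and 17.8 CPM, above the wild-type range, and was not called.

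Rises fell into a steady set and a set that 1 or 2 libraries dominated. C54E10.1 (chromosome V, 18815036 to 18818593), which overlaps C54E10.7 on the same strand, had 2.38, 3.25 and 1.01 CPM in wild-type F3 controls and 23.4, 27.5 and 28.3 CPM in met-2 (3.55, SE 0.53, edgeR adjusted p = 7e-05). W03F9.3 (chromosome V, 132450 to 134993) had 19.6, 31.6 and 31.3 CPM against 74.5, 113.6 and 96.9 CPM (1.79, SE 0.21, edgeR adjusted p = 5.1e-06). The pseudogene ferl-1 (chromosome I, 5452327 to 5459523), a relative of the ferlin gene fer-1 of sperm membrane fusion, had 3.58, 6.05 and 4.02 CPM against 43.1, 26 and 33.6 CPM (2.92, SE 0.42, edgeR adjusted p = 4.1e-05). The met-2 libraries of these 3 pseudogenes lay close together and above all wild-type libraries.

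C28F5.4 (chromosome II, 7520119 to 7523368) belonged to the second set. It had 0 counts in the 3 wild-type F3 controls and 36.0, 2.53 and 3.41 CPM in met-2, at least 98.5-fold higher if wild type is set to 3 counts over its libraries (edgeR adjusted p = 0.0019). Of its 294 counts in met-2, 250 came from replicate 1, and a fit to the compared groups alone gave an adjusted p of 0.085. M28.2 had 1 count in the wild-type F3 controls and 32.6, 7.57 and 1.05 CPM in met-2 (edgeR adjusted p = 0.019). The adjusted p of M28.2 was 0.079 by DESeq2 and 0.051 without the low-count filter. Without met-2 replicate 1 it was 0.062, and without wild-type replicates 1, 2 and 3 in turn it was 0.075, 0.068 and 0.065. ZK783.6 had 1 count in wild type and 14.7, 1.12 and 12.2 CPM in met-2 (edgeR adjusted p = 0.0012). C17G10.3 had 1 count in wild type and 5.62, 26.1 and 2.36 CPM in met-2 (edgeR adjusted p = 0.00094). All 4 were detected in each met-2 F3 control library, and their levels within the group spread more widely than those of ferl-1 or C54E10.1. With 0 or 1 count in the wild-type controls, the 4 passed the low-count filter only through other libraries, so no lower call was open to them. Members named here had groups that did not overlap, so their detection in each met-2 library follows from that choice.

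Small RNAs on some marker genes of other tissues also differed between the met-2 and wild-type F3 controls. Summed over 7 sperm markers they were 198 to 315 CPM in met-2 F3 controls against 69.6 to 87.8 CPM in wild type, with 3 of 6 tested markers called higher and 1 lower. Over 4 body muscle markers they were 129 to 372 CPM against 14.4 to 16.1 CPM (2 of 3 tested higher, with 1 marker at 0 in wild type). Over 6 intestine markers they were 77.6 to 201.5 CPM against 38 to 44.6 CPM (3 of 5 tested higher). Germline markers had 0 of 7 higher and 2 lower, oocyte markers 0 of 4 called and neuron markers 2 of 5 higher. Of 4 hypodermis markers none was tested. The part of these shifts in the pseudogene results was not tested.

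**Figure D2:**
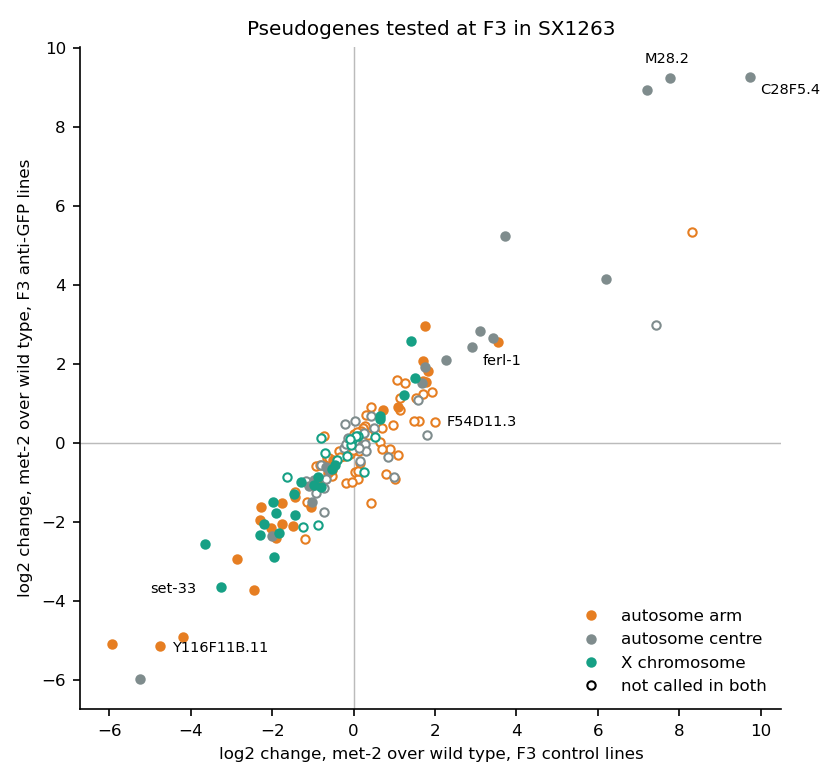
Log2 change of each tested pseudogene in SX1263 met-2 over wild type at F3, in control lines (horizontal) and in anti-GFP lines (vertical). Each point is 1 pseudogene, filled where called in both comparisons, with colours for chromosome position. Fitted values of pseudogenes with at most 1 count in wild type, such as C28F5.4 and M28.2, depend on the prior count of the fit and are no measure of fold.

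The anti-GFP lines gave the same contrast in other libraries, which entered the same fit and so shared its scaling and dispersion with the controls. At F3 edgeR called 27 pseudogenes higher and 51 lower in met-2 anti-GFP lines than in wild-type ones (background 15.8% and 12.8%). Of those higher, 24 were shared with the control comparison, 88.9% of the 27 and 75% of the 32. Of those lower, 44 were shared, 86.3% of the 51 and 89.8% of the 49. Over all genes 80.3% and 70.8% of the higher calls and 71.2% and 88.9% of the lower calls were shared in this way. No pseudogene was called in opposite directions. In F15 anti-GFP lines 14 were higher and 51 lower (background 14.7% and 15.5%), of which 12 and 48 were shared with the F15 controls, 85.7% and 94.1% of those calls and 57.1% and 88.9% of the calls in controls. Over all genes these shares were 81.4% and 87.1%, and 62.6% and 77.3%.

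The met-2 calls were compared across generations, beside the same counts over all genes tested. Among 162 pseudogenes tested at P0 and at F3, 37 were lower in both, 86.0% of the 43 at P0 and 75.5% of the 49 at F3, and 19 were higher in both, 79.2% of 24 and 61.3% of 31. Over all genes the shares were 68.6% and 69.9% for lower calls, and 79.3% and 60.8% for higher ones. Among 140 tested at F3 and F15, 42 were lower in both, 87.5% of 48 and 79.2% of 53, and 16 were higher in both, 61.5% of 26 and 80.0% of 20, where over all genes the shares were 82.4% and 48.1% for lower calls and 69.3% and 66.0% for higher ones. Of the 140 tested in all 5 met-2 comparisons (P0, F3 and F15 controls, F3 and F15 anti-GFP lines), 28 were lower (20.0%) and 5 higher (3.57%) in all 5, against 5.87% and 4.96% of the 10387 genes so tested. The higher share lay near that of all genes. The 5 were C54E10.1, W03F9.3, C30A5.4, F13A2.6 and gcy-2, a pseudogene named for receptor guanylyl cyclases. Replicate numbers paired the F15 controls, and C30A5.4 lost its call there with a replicate term (2.09, adjusted p = 0.06). It also lost it without any of 5 of the 6 libraries in turn (adjusted p 0.072 to 0.12), and its calls in P0 and F3 controls and F15 anti-GFP lines were each lost without either of 2 single libraries. F13A2.6 lost its F15 call without any of 4 single control libraries (adjusted p 0.056 to 0.11) and without any of 3 single anti-GFP libraries (adjusted p 0.07 to 0.083). The pseudogene gcy-2 had 0.477, 0.443 and 0.335 CPM in wild-type F3 controls and 2.74, 5.89 and 2.75 CPM in met-2, with changes of 2.31 to 3.10 over the 5 comparisons. Among the 28 were the abundant F22H10.5, F49F1.8 and C14B1.7, besides Y18D10A.22, Y116F11B.11, Y54G2A.42, set-33, dct-10, lips-14 and btb-13, the last named for the BTB domain of adaptor proteins. F49F1.8 changed by -0.69 to -1.18 over the 5 comparisons.

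The met-2 calls were also counted by chromosome position. At F3, 17 of 35 tested pseudogenes on X were lower (48.6%) and 5 higher, with a median change of -0.79, whereas 13.2% of tested protein-coding rows on X were lower. On autosome arms 24 of 86 were lower (27.9%, against 16.8% of protein-coding rows there) and 15 higher (17.4% against 10.9%). In autosome centres 8 of 43 were lower (18.6% against 4.5%) and 12 higher (27.9% against 21.4%). At P0, 13 of 42 on X were lower (31.0%, against 11.6% of protein-coding rows on X), and at F15 21 of 32 (65.6%, against 29.6%), with a median of -1.60. In the F3 and F15 anti-GFP lines 18 of 35 and 20 of 32 on X were lower, where 12.8% and 15.5% of all genes tested were lower. By chromosome, the lower calls at F3 were 7 of 18 on I, 10 of 41 on II, 4 of 27 on III, 4 of 11 on IV and 7 of 32 on V. Among protein-coding rows 9.76, 10.5, 8.77, 6.5 and 11.7% of those tested on I to V were lower. These are counts, and the difference between chromosomes was not tested.

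**Figure D3:**
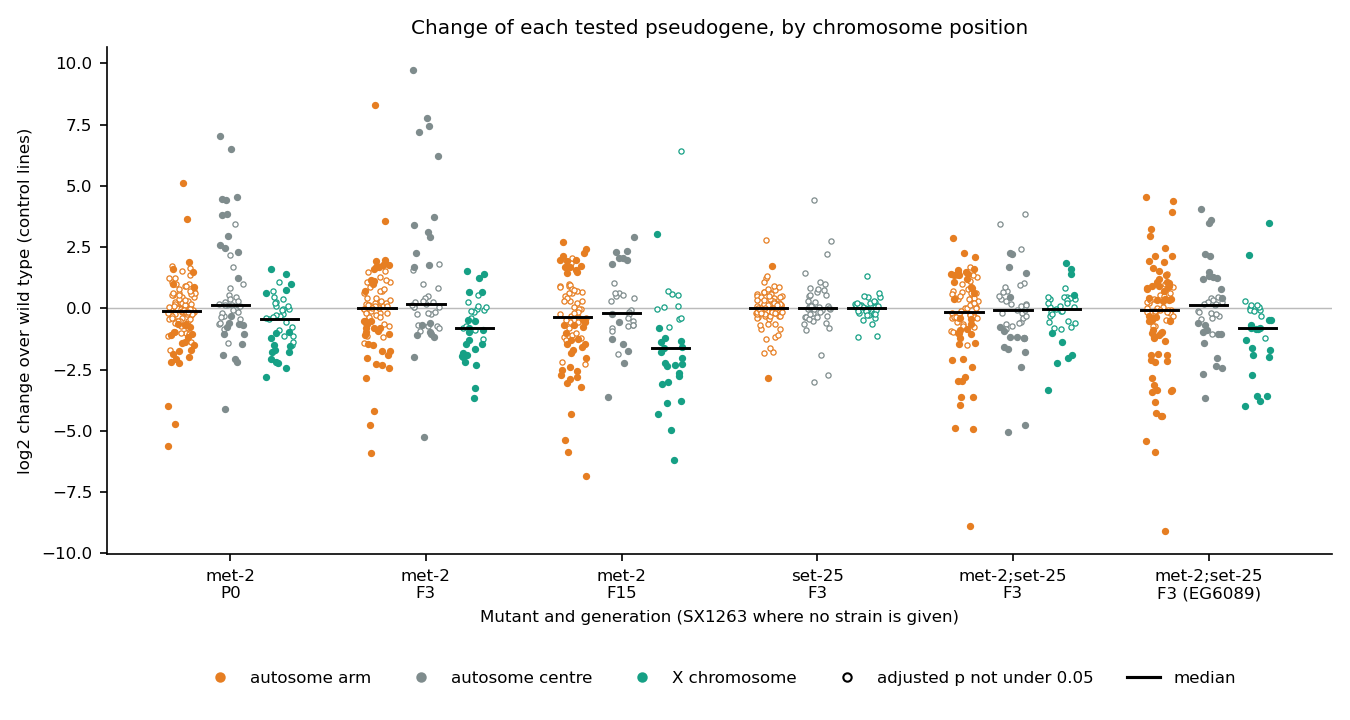
Log2 change over wild type of every tested pseudogene in control lines, by mutant and generation and by chromosome position. Each point is 1 pseudogene, filled where the edgeR adjusted p was under 0.05, and lines are medians. The X chromosome median is -0.79 in met-2 at F3 and -1.60 at F15, and -0.81 in the EG6089 double mutant at F3.

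Near the left end of X the calls were all in 1 direction. Among pseudogenes ending before position 300000 on X, a window chosen after the values were seen and given without a test, 13 had rows in SX1263 and 6 were tested at F3: Y73B3A.18, Y73B3A.3, Y73B3A.13, Y73B3A.9, T08D2.2 and set-33. All 6 were lower in met-2 in F3 controls, F15 controls and the anti-GFP lines of both generations, with medians of -2.10 at F3 and -3.81 at F15 in controls. At P0 6 of 7 were lower. In set-25 none of them was called at P0 or at F3, and the changes at F3 lay between -0.27 and 0.48. Y73B3A.13 had 10.1, 13.3 and 12.1 CPM in wild-type F3 controls and 1.59, 0.561 and 0.656 CPM in met-2. In the SX1263 double mutant, 3 of 7 were lower at P0 (median -0.54), 4 of 6 in F3 controls (median -1.18) and 4 of 6 in F3 anti-GFP lines (median -1.41). In EG6089, 6 of 7 tested there were lower in the double mutant at P0, in F3 controls and in F3 anti-GFP lines (medians -1.63, -1.92 and -1.59). Over all genes tested, 9.93% were lower in met-2 at P0, 10.3% in F3 controls and 17.4% in F15 controls. In the double mutant 14.1% were lower at P0 and 19.7% in F3 controls in SX1263, and 27.4% and 27.1% in EG6089. Protein-coding rows of this window were not counted, so the pattern cannot be called particular to pseudogenes.

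The calls were counted by name and overlap as well, beside 10.3% lower and 17.9% higher over all genes tested in met-2 at F3. At F3, 8 of 31 with a symbol were lower in met-2 (25.8%) and 41 of 133 with a sequence name alone (30.8%). Of those overlapping a protein-coding gene 7 of 24 were lower, and of those overlapping no gene 38 of 124. Protein-coding relatives that share a name stem with a named pseudogene had 69 of 472 lower (14.6%) and 124 higher. Relatives of chemoreceptor pseudogenes had 8 of 39 lower and 5 higher. Pseudogenes related to Argonautes were not called in this comparison. The pseudogene prg-2, a copy related to the Piwi gene prg-1, had 279, 278 and 245 CPM in met-2 F3 controls against 285, 243 and 252 CPM in wild type, and these groups overlapped. The pseudogene wago-2 had 670 ± 46.5 CPM in met-2 against 612 ± 51.2 CPM and was not called.

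A list of small RNA pathway genes, 30 in all, covered endogenous siRNAs, piRNAs, and nuclear and exogenous RNAi. In met-2 at F3 it had 2 higher and 4 lower (6.67% and 13.3%, against 17.9% and 10.3% of all genes). Small RNAs on alg-3 and alg-4, spermatogenesis Argonautes, rose by 3.26 (SE 0.65) and 3.59 (SE 0.78). Both had few counts, with 30 and 5 in the wild-type controls and 298 and 66 in met-2. Those on prg-1, hrde-1, nrde-2 and rde-11, which act in piRNA, nuclear and exogenous RNAi, fell by 0.40, 0.38, 0.33 and 0.68. At P0 the list had 1 higher and 6 lower, at F15 2 higher and 7 lower, in the SX1263 double mutant at F3 6 higher and 4 lower, and in the EG6089 double mutant 7 higher and 4 lower of 29. These shares were 3.33% and 20.0%, 6.67% and 23.3%, 20.0% and 13.3%, and 24.1% and 13.8% in that order. Over all genes tested they were 13.5% and 9.93%, 19.1% and 17.4%, 18.6% and 19.7%, and 23.7% and 27.1%. Nothing particular to the list is read from them.

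Few pseudogenes were called in the set-25 mutant. At P0 edgeR called 2 higher and 4 lower of 195 (background 0.379% and 0.577%), and with a replicate term, where numbers paired these libraries, 10 in all. At F3 controls 1 was higher and 1 lower of 164 (background 0.498% and 0.612%), and without wild-type replicate 1, 2 or 3 or set-25 replicate 1 in turn 0 were called. In F3 anti-GFP lines 0 were higher and 2 lower (background 0.463% and 0.498%), or 4 in all with the replicate term, since numbers also paired these. Without set-25 anti-GFP replicate 1 the count there was 0, and it was 1 without any other single library. DESeq2 called 10 at F3 controls and 5 in the anti-GFP lines. The median size of change at F3 was 0.28 against 0.17 for all genes, with the part of low counts again not tested.

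The direct contrast of met-2 against set-25 in F3 controls gave 28 pseudogenes higher and 38 lower of 164 (background 15.1% and 9.93%). The pseudogene set-33 was lower in met-2 than in set-25 by -3.56 (SE 0.30, edgeR adjusted p = 8.1e-08), and dct-10 by -2.16 (SE 0.25, edgeR adjusted p = 4.7e-06). The pseudogene ferl-1 was higher in met-2, by 3.34 (SE 0.42, edgeR adjusted p = 1.1e-05).

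In the met-2;set-25 mutant of SX1263, 26 pseudogenes were higher and 41 lower of 164 in F3 controls (background 18.6% and 19.7%), and 22 higher and 29 lower of 195 at P0 (background 11.2% and 14.1%). Replicate numbers paired the P0 libraries, and with a replicate term the P0 count rose from 51 to 80. In F3 anti-GFP lines 24 were higher and 40 lower (background 16.3% and 16.5%), of which 17 and 31 were shared with the controls (70.8% and 77.5%, and 65.4% and 75.6% of the calls in controls), where over all genes 72.6% and 84.0%, and 63.7% and 70.1%, were shared. On X 6 of 35 were lower in F3 controls and 4 higher (17.1% and 11.4%), where 6.0% of protein-coding rows on X were lower and 39.4% higher, and 19.7% and 18.6% of all genes. Intestine markers summed to 145 to 192 CPM in these mutant controls against 38 to 44.6 CPM in wild type (5 of 5 tested higher), body muscle markers to 0.164 to 1.42 CPM against 14.4 to 16.1 CPM (1 of 3 lower) and neuron markers to 208 to 296 CPM against 123 to 148 CPM (2 of 5 higher, 1 lower). The part of these shifts in the pseudogene results was not tested. The pseudogene dct-10, at 457, 975 and 432 CPM in met-2;set-25, overlapped the wild-type range and was not called there.

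Against met-2 itself, met-2;set-25 had 23 pseudogenes higher and 25 lower in F3 controls (background 9.24% and 15.6%). The pseudogene set-33, at 6.21, 6.02 and 7.12 CPM in met-2;set-25, lay above every met-2 library and below every wild-type library. It was higher than in met-2 by 1.89 (SE 0.31, edgeR adjusted p = 0.0002) and lower than in wild type (-1.36, SE 0.27, edgeR adjusted p = 0.00072). Likewise dct-10 was higher than in met-2 by 1.64 (SE 0.25, edgeR adjusted p = 0.00012). The pseudogene ferl-1, raised in met-2, was lower in met-2;set-25 than in met-2 by -3.23 (SE 0.43, edgeR adjusted p = 2.9e-05). F21H12.2 had 7.64, 4.49 and 2.36 CPM in met-2 and 0 counts in all 3 met-2;set-25 libraries, at least 28-fold lower. Body muscle markers summed to 0.164 to 1.42 CPM in met-2;set-25 F3 controls and sperm markers to 43.2 to 62.8 CPM, against 129 to 372 and 198 to 315 CPM in met-2, and the part of this in the contrast was not tested.

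The EG6089 strain gave the same mutant combination in other libraries. At F3 edgeR called 44 pseudogenes higher and 61 lower of 162 in met-2;set-25 controls (background 23.7% and 27.1%), at P0 33 higher and 61 lower of 167 (background 18.5% and 27.4%), and in F3 anti-GFP lines 35 higher and 62 lower (background 23.1% and 27.2%). On X 17 of 29 were lower at F3 (58.6%, median -0.81), against 23.4% of protein-coding rows on X, and at P0 10 of 31 (32.3%, against 14.2%). Of 110 pseudogenes tested in both backgrounds at F3, 13 were higher in both, 68.4% of the 19 in SX1263 and 50% of the 26 in EG6089. Lower in both were 26, 76.5% of 34 and 59.1% of 44. Over all genes these shares were 63.6% and 49.1% for higher calls and 78.4% and 67.0% for lower ones, near those of the pseudogenes. F52G3.4 was called in opposite directions, 0.55 in SX1263 (edgeR adjusted p = 0.048) and -0.84 in EG6089 (edgeR adjusted p = 0.00043). At P0, of 111 tested in both, 23 were lower in both, 95.8% of 24 and 51.1% of 45, and 9 higher in both, 64.3% of 14 and 47.4% of 19, where over all genes 82.9% and 53.4% of lower and 72.3% and 46.6% of higher calls were shared.

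ZK1055.5 and M01E5.1 were called in the same direction in both backgrounds. ZK1055.5 (chromosome V, 6580843 to 6584392), which overlaps ZK1055.4 on the same strand, had 6.59, 6.04 and 6.79 CPM in wild-type F3 controls and 101, 112 and 93.0 CPM in met-2;set-25 (4.07, SE 0.13, edgeR adjusted p = 7.4e-12). In SX1263 the same mutant had 22.6, 20.2 and 40.9 CPM against 9.65, 7.38 and 8.21 CPM (1.69, SE 0.47, edgeR adjusted p = 0.0086), and without met-2;set-25 replicate 3 the change was 1.28 (adjusted p = 0.052). M01E5.1 (chromosome I, 13274111 to 13276464) fell from 6.93, 6.37 and 7.52 CPM to 0.349, 0 and 0 CPM in EG6089 (-5.87, SE 0.67, edgeR adjusted p = 5.6e-06). In SX1263 it was at 0, 0.708 and 0.119 CPM against 3.22, 3.98 and 1.68 CPM (-3.96, SE 0.79, edgeR adjusted p = 0.00073). For both pseudogenes the groups did not overlap in either background. In EG6089 F3 controls the intestine markers summed to 65.7 to 70.5 CPM in the mutant against 11.7 to 19.4 CPM, and the body muscle markers to 250 to 318 CPM against 480 to 569 CPM, with 2 of 4 at 0 in the mutant. Neuron markers summed to 220 to 269 CPM against 63.1 to 76.9 CPM, and sperm markers to 60.5 to 80.2 CPM against 91.6 to 107 CPM, with 1 of 7 at 0 in the mutant. Their part in these results was not tested.

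Some pseudogenes separated the mutants by direction. F59H6.2 (chromosome II, 2019654 to 2022596), which overlaps the protein-coding gene bath-21 on the opposite strand, had 176, 161 and 168 CPM in SX1263 wild-type F3 controls and 67.0, 40.5 and 42.2 CPM in met-2, where it fell (-1.75, SE 0.36, edgeR adjusted p = 0.0012). In met-2;set-25 it rose to 245, 862 and 434 CPM (1.54, SE 0.35, edgeR adjusted p = 0.002). The 2 mutants did not overlap with each other or with wild type, and differed by 3.29 (SE 0.38, edgeR adjusted p = 6.6e-06). In set-25 it rose at P0 (1.65, SE 0.28, edgeR adjusted p = 0.0037) and was not called at F3. The EG6089 double mutant had a rise at F3 (0.73, SE 0.13, edgeR adjusted p = 0.0003).

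K08C9.7 (chromosome I, 11495521 to 11496245) had 2.5, 3.54 and 2.35 CPM in wild type, 0.144, 0.701 and 0.656 CPM in met-2 and 19.2, 26.4 and 12.7 CPM in set-25. The 3 groups did not overlap, and met-2 differed from set-25 by -5.21 (SE 0.82, edgeR adjusted p = 0.00013). Against wild type, the rise of K08C9.7 in set-25 was called at P0 (3.06, edgeR adjusted p = 0.0021). It was not called at F3, in controls or in anti-GFP lines. In met-2;set-25 its libraries were far apart in SX1263, at 20.9, 1.77 and 4.75 CPM, and uniformly high in EG6089, at 23.4, 39.8 and 12.5 CPM against 0.676, 2.01 and 0.971 CPM in wild type. Y53F4B.16 (chromosome II, 15052083 to 15054573) fell in met-2, from 40.8, 45.2 and 41.7 CPM to 6.2, 9.68 and 10.1 CPM (-2.30, SE 0.54, edgeR adjusted p = 0.0034). In the EG6089 double mutant it rose from 3.38, 13.4 and 13.4 CPM to 138, 137 and 122 CPM (3.94, SE 0.34, edgeR adjusted p = 2.4e-06). In SX1263 met-2;set-25, at 42.7, 25.8 and 42.1 CPM, it overlapped wild type. The wild-type levels of Y53F4B.16 themselves differed between the backgrounds, which were scaled separately.

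F52C6.14 (chromosome II, 1931143 to 1934507) was low in every F3 library with the set-25 allele. At F3 it had 7.03, 6.94 and 10.2 CPM in wild type, 13.3, 2.67 and 8.79 CPM in met-2 and 0.879, 1.87 and 0.498 CPM in set-25. The double mutant had 0 counts in all 3 libraries, at least 46.7-fold below the 167 counts of wild type, and in EG6089 0 counts against 209, at least 65.2-fold lower. The fall in set-25 was -2.84 at F3 (SE 0.58, edgeR adjusted p = 0.022), -3.21 at P0 (SE 0.40, edgeR adjusted p = 0.00029) and -3.50 in F3 anti-GFP lines (edgeR adjusted p = 0.0064). The F3 control call was lost without wild-type replicate 1, 2 or 3 (adjusted p 0.058, 0.059 and 0.076) and without set-25 replicate 1 or 3 (adjusted p 0.12 and 0.1). At F15 it fell in met-2 as well (-2.52, SE 0.59, edgeR adjusted p = 0.0073).

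Y71A12B.15 (chromosome I, 13992994 to 13996221) was lower than wild type in every F3 control library of each mutant. At F3 it had 134, 150 and 159 CPM in wild type and 46.3, 5.05 and 39.6 CPM in met-2. The set-25 libraries had 45.3, 56.7 and 44.6 CPM and the double mutant 5.4, 5.66 and 4.51 CPM. The met-2 libraries were far apart, and 1 of them lay among those of met-2;set-25. The changes were -2.27 in met-2 (SE 0.47, edgeR adjusted p = 0.0014, or 0.062 in a fit to the compared groups alone) and -4.91 in met-2;set-25 (SE 0.56, edgeR adjusted p = 3.6e-06). In EG6089 it fell from 131, 169 and 134 CPM to 3.14, 2.72 and 3.37 CPM (-5.40, SE 0.17, edgeR adjusted p = 7.2e-12). In set-25 the fall was called at P0 (-1.96, SE 0.29, edgeR adjusted p = 0.0013). It was not called in set-25 F3 controls or F3 anti-GFP lines. ZK930.5 (chromosome II, 11882614 to 11883512) went the other way in met-2;set-25, from 11.4, 13.1 and 14.9 CPM to 152, 122 and 32.2 CPM in SX1263 (2.87, SE 0.67, edgeR adjusted p = 0.0025). In EG6089 it rose from 4.73, 5.37 and 7.04 CPM to 96.3, 135 and 96.6 CPM (4.38, SE 0.19, edgeR adjusted p = 2.9e-10).

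**Figure D4:**
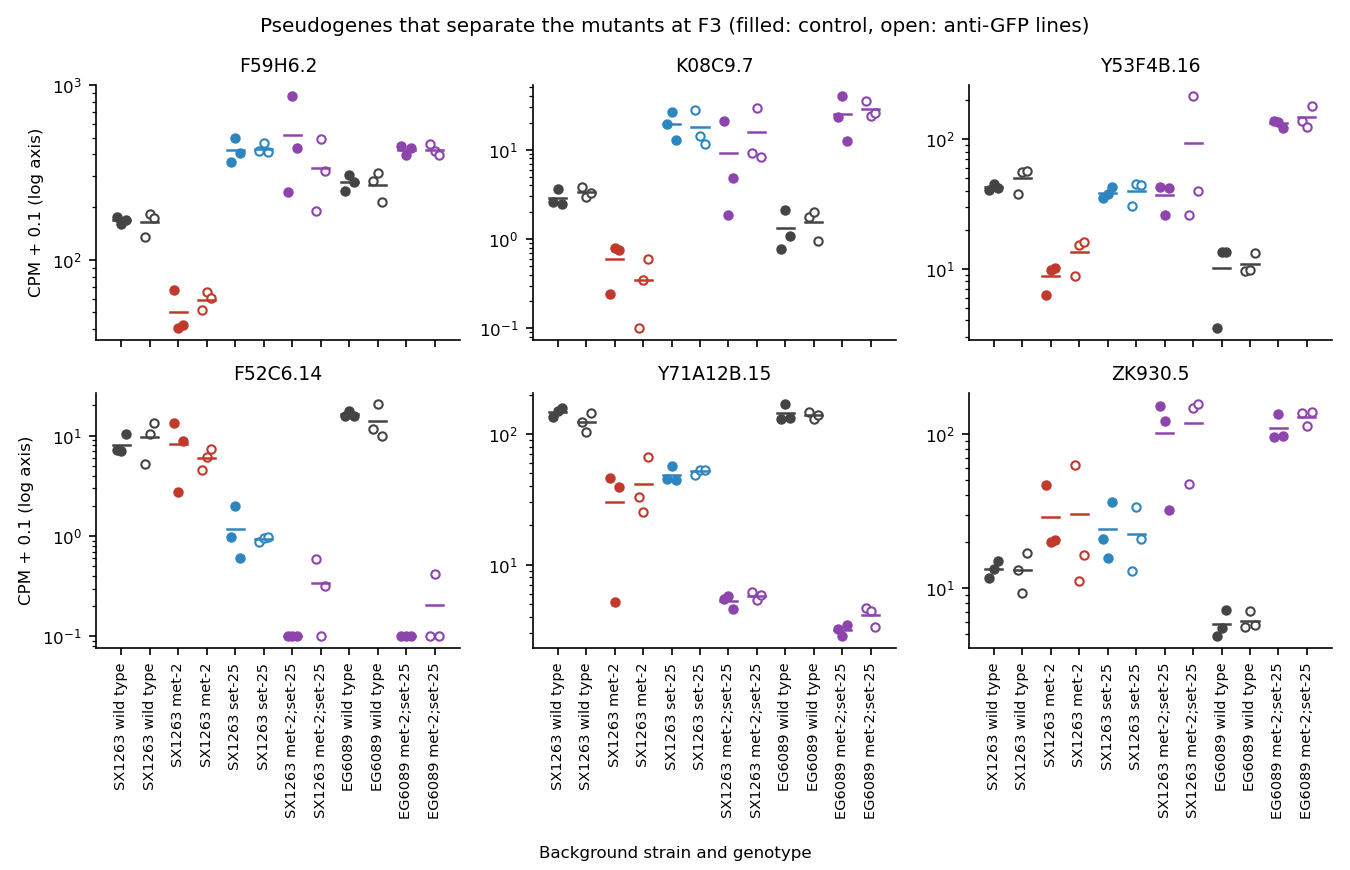
Levels of 6 pseudogenes at F3 by background strain and genotype, as CPM plus 0.1 on a log axis. Each point is 1 library, filled for controls and open for anti-GFP lines, and bars are group means. F52C6.14 is at 0 counts in the met-2;set-25 controls of both backgrounds, and F59H6.2 is lower in met-2 and higher in met-2;set-25 than in SX1263 wild type.

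For the treatment itself, RNAi against GFP, edgeR called no pseudogene. At P0 0 of 195 were called in SX1263 over the 4 genotypes (background 0.0158%) and 0 of 167 in EG6089 (background 0.011%), with 1 and 21 at an unadjusted p under 0.05 and 0 by DESeq2. At F3 in SX1263 0 of 164 were called in wild type (background 0.00874%, 0 at an unadjusted p under 0.05), met-2 (0.131%, 6 unadjusted), set-25 (0%, 2 unadjusted) and met-2;set-25 (0.0962%, 19 unadjusted). DESeq2 called 0, 1, 0 and 2 there. At F15 0 of 143 were called in wild type (background 0%, 2 unadjusted, 0 by DESeq2) and met-2 (0.0937%, 3 unadjusted, 1 by DESeq2). In EG6089 at F3 0 of 162 were called in wild type (background 0.0112%, 2 unadjusted) and met-2;set-25 (0.0224%, 14 unadjusted), and 0 by DESeq2 in both. On the GFP row the same SX1263 P0 libraries had 1497 to 2812 CPM after feeding against 57.5 to 126 CPM in controls.

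Between generations, few wild-type pseudogenes were called. From P0 to F3 in SX1263 edgeR called 0 of 184 (background 0.189%), with 28 at an unadjusted p under 0.05 and 6 by DESeq2. From F3 to F15 it called 1, prg-2 (background 0.131%), which rose from 285, 243 and 252 CPM to 405, 411.5 and 373 CPM (0.58, SE 0.11, edgeR adjusted p = 0.03). The groups did not overlap, but the count was 0 without any 1 of these 6 libraries. In met-2 edgeR called 0 from P0 to F3 (background 0.23%), with 24 at an unadjusted p under 0.05 and 1 by DESeq2. In EG6089 wild type 1 was higher and 9 lower of 169 at F3 than at P0 (background 4.63%), a count that fell to 4, 3 and 1 without F3 replicates 1, 2 and 3, and to 3 without P0 replicate 2. Within P0, libraries of replicate 1 stood apart for the abundant Y46H3C.6, with 9333 CPM for wild type, 7863 for met-2, 9021 for set-25 and 8381 for the double mutant among SX1263 controls. The replicates 2 and 3 of these groups lay between 2923 and 4577 CPM.

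In met-2, more calls were made between F3 and F15. In met-2 controls 17 were higher and 35 lower at F15 than at F3 (background 16%), 52 in all, and 28 without met-2 F3 replicate 1 or 34 without met-2 F15 replicate 2. In the same libraries body muscle markers went from 129 to 372 CPM at F3 to 3 to 16.3 CPM at F15 (3 of 3 tested lower), and sperm markers from 198 to 315 CPM to 48.4 to 148.5 CPM, although 3 of 7 sperm markers were called higher and 1 lower. Intestine markers went from 77.6 to 201.5 CPM to 51.8 to 82.4 CPM (1 of 5 lower) and neuron markers from 175 to 285 CPM to 111.5 to 165 CPM (2 of 5 lower). Their part in the calls between F3 and F15, ferl-1 included, was not tested. F22H10.5 (X, 16684414 to 16687196) had 717.5, 553 and 705 CPM in met-2 at F3 and 248, 178 and 262 CPM at F15 (-1.54, SE 0.25, edgeR adjusted p = 0.00012), while in wild type it had 1183, 1363 and 1322 CPM at F3 and 1096, 943 and 1288 CPM at F15. C28F5.4 fell from 36.0, 2.53 and 3.41 CPM to 0.970, 0.563 and 1.32 CPM (-3.87, edgeR adjusted p = 0.015). Without met-2 F3 replicate 1 that change was -1.63 (adjusted p = 0.33), and without met-2 F15 replicate 2 it was -3.55 (adjusted p = 0.067).

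Tests of the difference in the met-2 effect called 0 of 184 between P0 and F3 (background 0.0164%), with 8 at an unadjusted p under 0.05 and 0 by DESeq2. Between F3 and F15 they called 7 (3.8%), all with the lower effect at F15 (background 2.9%). Over all genes 314 had the lower effect at F15 and 40 the higher, so this direction is not particular to pseudogenes. The count of 7 was 3 without met-2 F3 replicate 1 and 12 without met-2 F3 replicate 2. The pseudogene ferl-1 had 43.1, 26 and 33.6 CPM in met-2 at F3 and 6.95, 6.57 and 15.2 CPM at F15, and the effect was lower by -2.25 (SE 0.49, edgeR adjusted p = 0.0094). F54D11.3 (chromosome V, 4635400 to 4637145) had 404, 44.7 and 226 CPM in met-2 at F3 against 48.6, 66.6 and 57.3 CPM in wild type, and the groups overlapped. At F15 it had 23.4, 14.3 and 43.0 CPM against 59.1, 64.7 and 97.5 CPM, with no overlap. Its met-2 effect was thus 1.99 at F3 (edgeR adjusted p = 0.0063) and -1.46 at F15 (edgeR adjusted p = 0.0099), and differed by -3.40 (SE 0.68, edgeR adjusted p = 0.0049). In F3 anti-GFP lines, at 149, 47.7 and 61.4 CPM, F54D11.3 was not called against wild type.

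**Figure D5:**
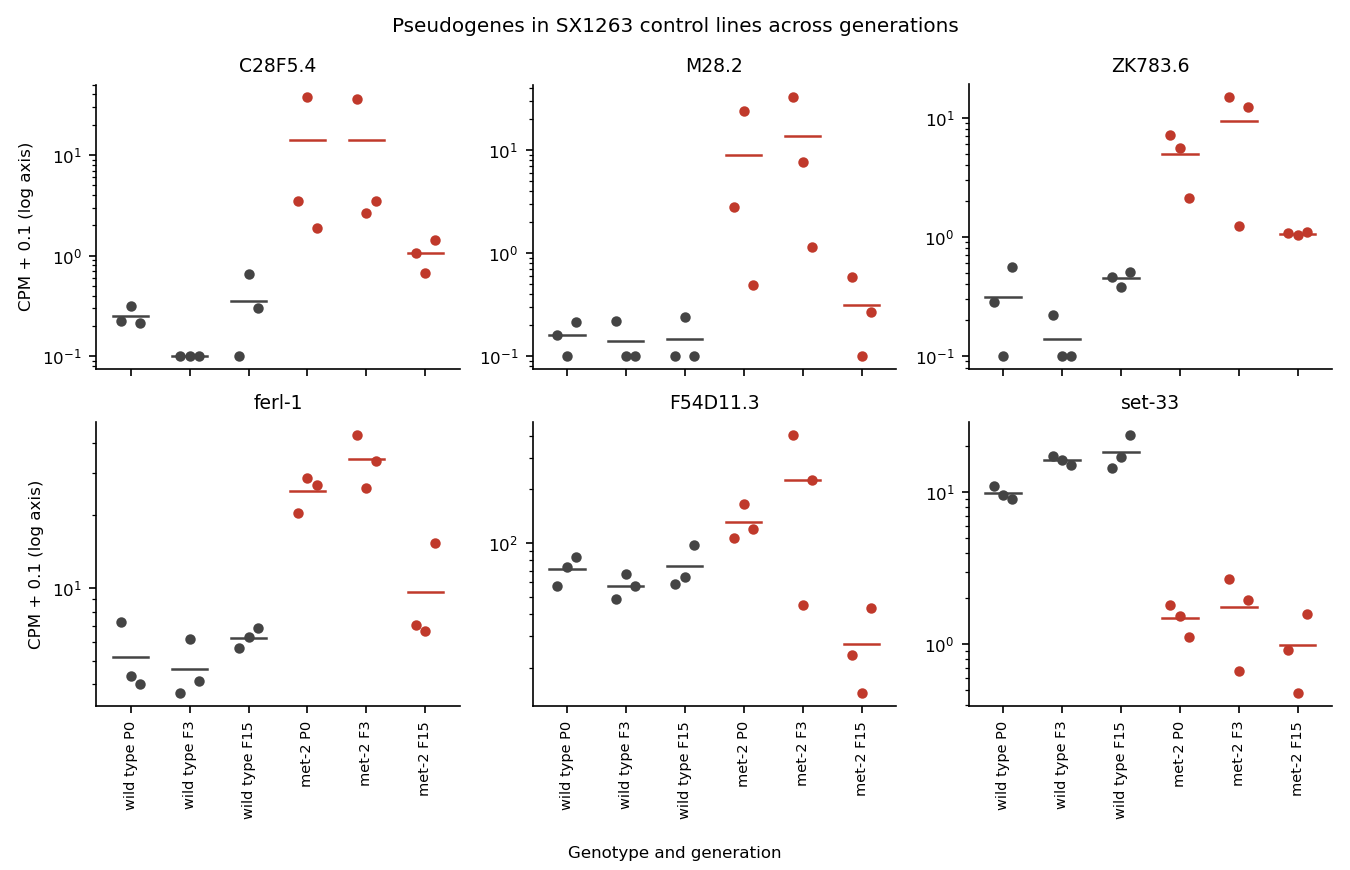
Levels of 6 pseudogenes in SX1263 controls at P0, F3 and F15 in wild type and met-2, as CPM plus 0.1 on a log axis. Each point is 1 library and bars are group means. The pseudogene ferl-1 is high in met-2 at P0 and F3 and lower at F15, while set-33 is below wild type in met-2 in all 3 generations.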

How the data were processed

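Small RNA libraries of 83 samples were analysed as raw counts per gene, which the authors deposited as 1 HTSeq table per library. Tools listed in the submitters' processing notes are cutadapt and FastQC, then Bowtie2, HTSeq and DESeq2, with WBcel235 and ce11 as builds. Versions, strand setting and length filter are not given in the sources used here. Per the labels, libraries came from a NEBNext or a TruSeq small RNA kit, and which library had which cannot be told apart. The 5 HTSeq counter rows (50.8 to 62.0% of records in SX1263, 29.2 to 42.4% in EG6089) were left out.

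Each row was looked up in Ensembl's WBcel235 annotation through its identifier or sequence name (20159 rows in SX1263, 19898 in EG6089). Of the pseudogene rows, 514 and 664, the excluded name families took 59 and 74. The members, lists and tests were chosen with earlier results of these data known. The two-sided test was edgeR's quasi-likelihood F test with robust fitting (edgeR 4.0.16, R 4.3.3), with TMM factors and filterByExpr by group (minimum count 10, minimum total 15). One fit took every library of a generation within a background, or, for contrasts between generations or of effects, every control library of the background. Benjamini-Hochberg adjustment ran over all genes tested, and a call needed an adjusted p under 0.05, in 33 comparisons. A group at 0 was set to a floor of 3 counts over the group, which covers counting error only, since reads carry no molecular identifiers. Setting such members to that bound, and leaving out members with at most 3 counts in both groups, moved no median by more than 0.091.

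Members named were the 10 most abundant and the called members with the largest changes. For the latter the higher group reached 5 CPM and groups did not overlap, but overlap was allowed in tests of a difference in effect. Members called alike in all 5 met-2 comparisons were also named. So were those with the largest calls in opposite directions between comparisons of mutant and wild-type controls. The X window, Y40H7A.9, F52G3.4, wago-2 and the replicate 1 values of Y46H3C.6 were picked with their values in view. Each result was recomputed with DESeq2 1.42.0, RLE scaling, no filter on low counts, a replicate term, and leaving out each library. Only comparisons of a mutant with wild type were also refitted to the compared groups alone, and to protein-coding genes and pseudogenes only. Same-numbered libraries deviated together, with every correlation over 0.1, in 8 of the 33 comparisons. Tested on simulated counts for met-2 against wild type at F3 over 11065 genes, the fit recovered 34 of 94 genes changed 2-fold and 70 of 97 changed 4-fold, with 4 false calls.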

Additional observations from a re-analysis of the deposited data

Results flagged for a closer look

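The met-2 effect differed between F15 and F3 in SX1263 controls, by edgeR's test of the difference itself, for 4 named pseudogenes. The difference, F15 minus F3, was -3.40 for F54D11.3 (adjusted p = 0.0049), -2.25 for ferl-1 (adjusted p = 0.0094), -2.11 for got-1.3 (adjusted p = 0.015) and -1.73 for oac-60 (adjusted p = 0.0099). The pseudogene got-1.3, named for glutamate oxaloacetate transaminases, had 13.4, 11.4 and 10.5 CPM in met-2 at F3 against 14.2, 13.1 and 11.9 CPM in wild type. At F15 got-1.3 had 5.01, 2.63 and 4.47 CPM against 20.8, 16.8 and 21.8 CPM. The pseudogene oac-60, named for O-acyltransferases, had 55.2, 26.6 and 48.1 CPM in met-2 at F3 against 71.6, 107.0 and 91.5 CPM, and 7.11, 11.1 and 11.1 CPM at F15 against 72.1, 52.6 and 77.8 CPM. Without met-2 F3 replicate 1 the difference for oac-60 was -1.47 (adjusted p = 0.058).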

How the results depend on the processing

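Counts of pseudogenes called in the met-2 and met-2;set-25 comparisons with wild type stayed within 1.5 times under every alternative run, except met-2;set-25 at P0 in SX1263, 51 against 80 with the replicate block. For set-25 the counts were 6 and 10 with the block at P0. For set-25 at F3 they were 2 in controls, 10 with DESeq2, 14 in the fit to the compared groups, 1 without the low-count filter, 5 with the block and 0 to 1 without single libraries. In F3 anti-GFP lines they were 2, 5 with DESeq2, 10 in the fit to the compared groups, 4 with the block and 0 to 1 without single libraries. Counts of 0 for anti-GFP became 7 without the filter in EG6089 at P0 (0 to 1 without single libraries), 1 with DESeq2 in met-2 at F3 (0 to 3), 2 in met-2;set-25 at F3 (0 to 2) and 1 in met-2 at F15. For F3 against P0 in wild type, 0 became 6 with DESeq2, 1 with RLE scaling, 1 with the block and 0 to 2 without single libraries, and in met-2 1 with DESeq2. For F15 against F3 in wild type, 1 became 4 with DESeq2 and 0 without the filter or any single library, and in met-2 52 became 28 to 57 without single libraries. For F3 against P0 in EG6089 wild type, 10 became 16 with DESeq2, 5 with RLE scaling, 17 without the filter, 20 with the block and 1 to 14 without single libraries. For the met-2 effect at F15 against F3, 7 became 13 with DESeq2 and 3 to 12 without single libraries. The cause was not tested. Of 1797 alternative values for 154 results on named pseudogenes, 1715 kept direction and call, 82 lost the call and 0 reversed. Where numbers paired the libraries the block changed no other count by over 1.5 times.

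Most pseudogenes carried few counts: in SX1263 143 of 455 had none in wild-type F3 controls, so a fall there was not detectable at this depth. Groups of 3 libraries limit every test. The simulated 2-fold changes were recovered in 36.2% of cases, drawn from all genes and not from pseudogenes alone. Fewer genes were changed there than were called in the data, which makes the adjustment stricter. The 36.2% is thus no estimate for pseudogenes.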

Other observations

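Y40H7A.9 (chromosome IV, 15207497 to 15207894) had counts in all 59 SX1263 libraries, at 7.60 to 308 CPM (median 27.8 CPM, 24782 counts in all), and 0 counts in all 24 EG6089 libraries. Of the 442 pseudogenes with a row in both sets, 64 had a median of at least 10 CPM in SX1263, and Y40H7A.9 was the only 1 of these 64 with no count in EG6089. In the other direction 0 of 61 had none. Y40H7A.9 lies within the span of another annotated gene that is not protein-coding. Whether both sets were counted with the same annotation and settings is not given in the sources used here.

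W06A11.4 had 666, 578 and 562 CPM in EG6089 wild-type F3 controls and 110, 117 and 99.8 CPM in met-2;set-25 (-2.36, SE 0.14, edgeR adjusted p = 9.4e-09). In SX1263 W06A11.4 had 98.8, 256 and 117 CPM in wild type and 95.3, 124 and 111 CPM in met-2;set-25, and these groups overlapped. The difference between the backgrounds was not tested.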
